A study of Homo sapiens with 4 samples.

Results

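The genes described here encode the enzymes that make fatty acids, lengthen and desaturate them, join them to glycerol as triglyceride and release them again, together with 2 proteins that coat lipid droplets. The list holds 40 genes by name, from ACLY at the start of fatty acid synthesis to PLIN3 on the droplet. Of these, 37 had an array probe set (a transcript cluster) annotated with exactly 1 gene symbol, among 22411 genes measured in all. FADS1, ACSL3 and AGPAT3 had none and were not analysed here. The list was proposed with the results of this same comparison already known, so the counts below describe these genes and are no test of the list.

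Gene expression was measured in HCT116, a line of human colon cancer cells whose CTNNB1 gene is mutated to an activated form. CTNNB1 encodes beta-catenin, which joins TCF/LEF factors in the nucleus to activate Wnt target genes. All cultures received 50 nM siRNA with a lipid transfection reagent for 48 h, and the groups differed in whether that siRNA was a control or was directed at CTNNB1. Each group had 2 biological replicates with 1 whole-transcript array each, 4 arrays in all. The labels name neither the siRNA sequence nor how many different CTNNB1 siRNAs were used, so 1 line and 1 knockdown condition are all that was compared. The labels call the replicates biological but do not say how separate their cultures were, so p-values measure only the spread between these arrays. In bulk RNA, fewer cells with a transcript and less of it per cell cannot be told apart.

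Fatty acid synthesis starts in the cytosol, where ATP citrate lyase makes acetyl-CoA, acetyl-CoA carboxylase turns it into malonyl-CoA and fatty acid synthase builds palmitate. Elongases and desaturases of the endoplasmic reticulum modify the chain, and acyl-CoA synthetases activate it. The glycerol-3-phosphate pathway then adds the chains to glycerol by the successive action of GPAT, AGPAT, lipin and DGAT enzymes, each encoded by several genes. Tumour cells often make their own fatty acids, and triglyceride is stored in droplets from which lipases free it.

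CTNNB1 itself was at 10.06 and 10.20 log2 units in the control arrays and at 6.50 and 6.65 in the CTNNB1 siRNA arrays, so both labelled knockdown arrays lay far below both controls. The epithelial genes EPCAM, KRT8, KRT18 and KRT19 lay between 10.50 and 13.71 log2 units on all arrays, while the intestinal markers KRT20, CDX1, CDX2 and VIL1 were under 4.29 log2 units, the level a gene's mean had to exceed to be tested. Of 5 tested epithelial genes, 4 rose by the test described below, where 14.2% of all tested genes rose. Log2 fold changes were 0.31 for EPCAM, 0.89 for KRT8, 0.50 for KRT18 and 2.27 for CDH1. CDH1 was at 6.80 and 7.20 in the controls and at 9.06 and 9.48 after CTNNB1 siRNA. KRT19 did not pass (log2 fold change -0.05), and its groups overlapped. Whether these 4 rises bear on the lipid genes was not tested. Of 6 adipocyte markers measured, 5 lay under that filter, and PLIN1 was just above it at 4.30 to 4.49. The mean level of the adipocyte list was 3.55 and 3.66 in the control arrays and 3.66 and 3.48 after CTNNB1 siRNA, so the groups overlapped. Of 14 measured hepatocyte, fibroblast and leukocyte markers, 5 passed the filter and none passed the test. Replicate arrays correlated at 0.9972 and 0.9974 across genes, and arrays of different groups at 0.9772 to 0.9802.

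Of the 37 measured genes, ELOVL2 and ELOVL4 lay below the level filter and the other 35 were tested by limma together with all 15679 genes above it. A gene is said here to have risen or fallen where its Benjamini-Hochberg adjusted p over all tested genes was under 0.05. After CTNNB1 siRNA 16 of the 35 rose, 1 fell and 18 did not pass. Over all tested genes 14.2% rose, 16.1% fell and 30.3% passed in either direction. At least 2-fold rises were seen for 5 members, against 2.88% of all tested genes, and no member fell 2-fold, against 2.83%. The median log2 fold change was 0.28 over the 35 members and -0.02 over all tested genes. Because the choice of the list followed from this contrast, nothing is read from these shares, nor from the counts by enzyme step below, which stand against the same 14.2% and 16.1%.

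The 5 genes that rose at least 2-fold each stood in a different step: the lipase gene LIPH, the acyltransferase genes GPAT3 and AGPAT4, the elongase gene ELOVL6 and the droplet coat gene PLIN3. GPAM, which encodes the mitochondrial glycerol-3-phosphate acyltransferase, was the member that fell. Arrays of the groups did not overlap for 19 members that were higher and 6 that were lower, against 28.8% and 34.2% of all tested genes.

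**Figure D1:**
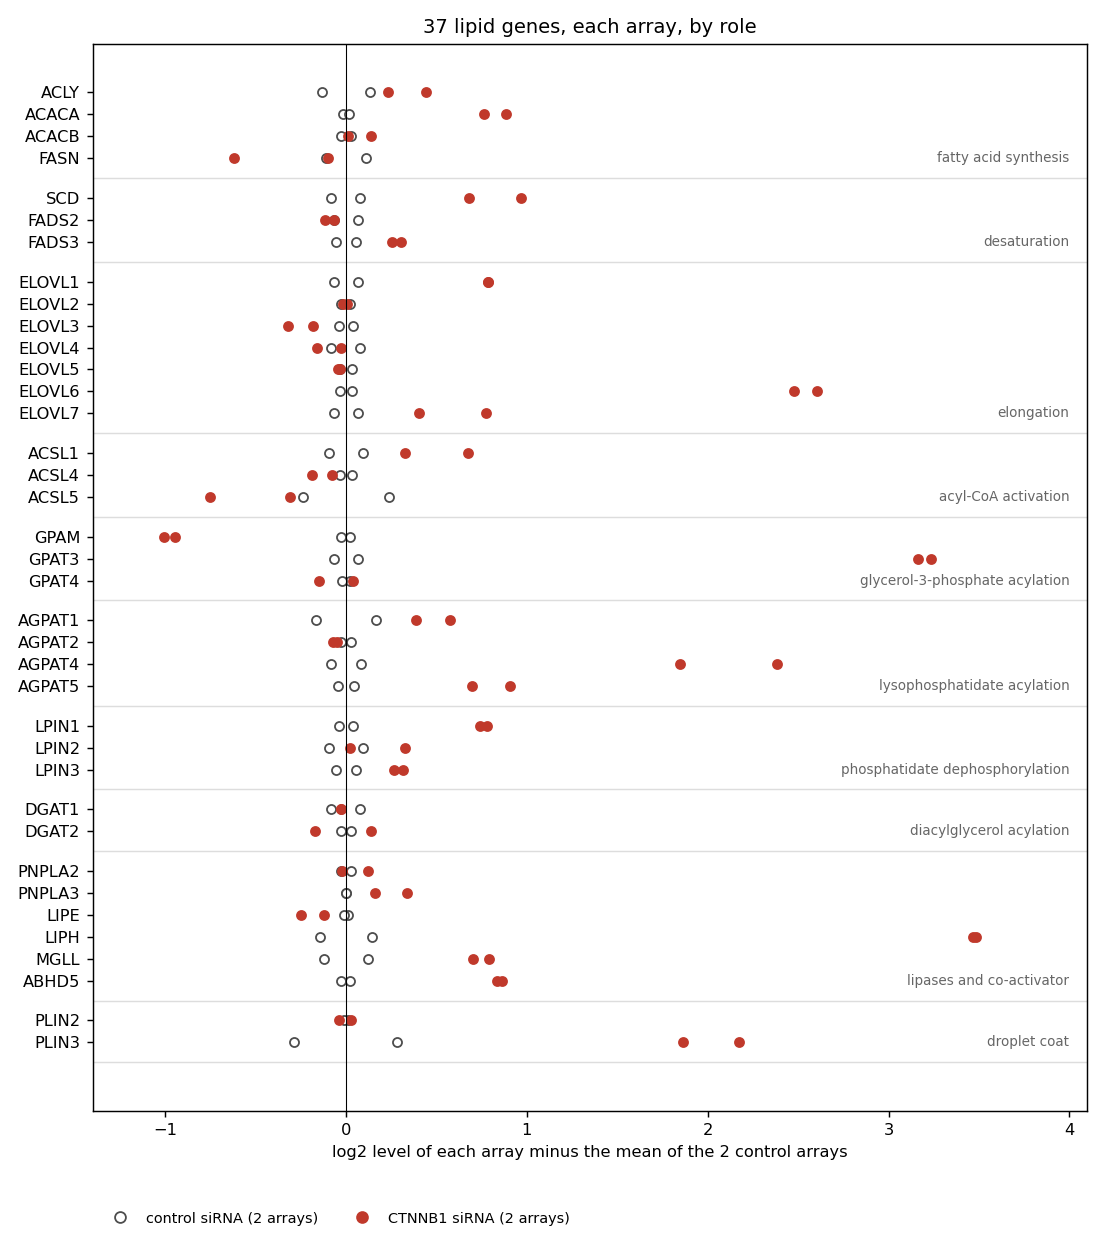
Log2 level of each of the 37 measured genes on each array, minus the mean of the 2 control arrays of that gene, with genes grouped by role. Open points are control arrays and red points CTNNB1 siRNA arrays. Red points lie far to the right for ELOVL6, GPAT3, AGPAT4, LIPH and PLIN3 and to the left for GPAM, while most other genes lie within 1 log2 unit of their controls.

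The promoter windows of LIPH, GPAT3 and ELOVL6, the 3 largest rises, and of GPAM, the fall, are shown. Each runs from 250 bases before to 50 bases after a transcript start (the first one listed for the gene) on the gene's own strand, taken from RefSeq on GRCh38.p14. Capitals mark every match, on either strand, to the TCF/LEF sequences CTTTGAT and CTTTGAA, the SREBP site TCACNCCAC, the CCAAT box CCAAT and the E-box CACGTG. The TCF/LEF sequences differ in their last base only.
GPAT3, chr4:83535857-83536156, plus strand: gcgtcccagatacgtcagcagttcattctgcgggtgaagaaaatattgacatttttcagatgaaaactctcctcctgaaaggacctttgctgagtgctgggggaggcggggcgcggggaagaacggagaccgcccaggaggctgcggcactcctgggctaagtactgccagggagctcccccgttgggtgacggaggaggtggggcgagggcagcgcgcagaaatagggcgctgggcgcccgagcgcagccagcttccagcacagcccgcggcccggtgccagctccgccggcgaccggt
GPAM, chr10:112183716-112184015, minus strand: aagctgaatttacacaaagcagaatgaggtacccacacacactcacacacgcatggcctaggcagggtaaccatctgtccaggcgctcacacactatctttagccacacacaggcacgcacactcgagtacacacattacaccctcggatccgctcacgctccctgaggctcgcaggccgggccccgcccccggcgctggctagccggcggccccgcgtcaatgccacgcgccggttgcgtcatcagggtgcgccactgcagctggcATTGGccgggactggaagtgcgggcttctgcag
LIPH, chr3:185552539-185552838, minus strand: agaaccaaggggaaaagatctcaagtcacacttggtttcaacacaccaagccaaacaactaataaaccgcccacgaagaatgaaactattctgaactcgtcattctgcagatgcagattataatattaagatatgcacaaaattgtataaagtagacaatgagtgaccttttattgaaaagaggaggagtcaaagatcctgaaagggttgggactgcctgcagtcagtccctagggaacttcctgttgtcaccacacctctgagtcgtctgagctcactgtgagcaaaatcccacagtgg
ELOVL6, chr4:110198566-110198865, minus strand: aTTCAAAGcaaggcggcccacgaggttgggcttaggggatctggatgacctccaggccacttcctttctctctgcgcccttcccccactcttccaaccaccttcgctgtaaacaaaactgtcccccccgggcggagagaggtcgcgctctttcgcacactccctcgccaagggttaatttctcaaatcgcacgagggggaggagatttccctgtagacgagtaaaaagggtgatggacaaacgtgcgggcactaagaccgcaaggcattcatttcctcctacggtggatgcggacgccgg

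The GPAT3 and LIPH windows held no match to any of these letters. The ELOVL6 window held the TCF/LEF sequence ending in A on the opposite strand from base 2 of 300, and the GPAM window held the CCAAT box on the opposite strand from base 268. GC content was 65.0% for GPAT3, 63.0% for GPAM, 57.3% for ELOVL6 and 43.0% for LIPH, with a median of 58.3% over 27305 genes with a window. Of the 35 tested members, 27 had a window. The TCF/LEF sequence ending in T was in none of these 27, against 2.64% of all windows. The one ending in A was in 2 (ELOVL6, and ACACB, which did not pass), against 4.53%. The SREBP site was in 1 (PNPLA2), against 1.15%, and the E-box in 2 (ELOVL5 and PLIN2), against 7.43%. The CCAAT box was in 11 of 27, against 35.7%. It was in 5 of the 13 windows of members that rose, among them AGPAT4 and PLIN3, whose windows are not shown. Of these 13 windows, the TCF/LEF sequence ending in A was in 1, that of ELOVL6. The TCF/LEF sequence ending in T, the SREBP site and the E-box were in 0 of the 13. Matches are descriptions of the letters in these windows.

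Of the 4 genes for the first enzymes of fatty acid synthesis, 1 rose and 3 did not pass. ACACA, which encodes the cytosolic acetyl-CoA carboxylase, was at 11.12 and 11.15 log2 units with control siRNA and at 11.90 and 12.02 with CTNNB1 siRNA. It rose by 0.83 log2 units (SE 0.08, 95% interval 0.62 to 1.03). Its paralog ACACB, whose product sits at the mitochondrial surface and restrains fatty acid oxidation, was at 5.70 and 5.64 against 5.68 and 5.81, and the groups overlapped. FASN, the fatty acid synthase gene, was at 11.09 and 11.31 in the controls and at 10.58 and 11.10 after CTNNB1 siRNA. The higher CTNNB1 siRNA array for FASN thus reached the lower control array, and the log2 fold change of -0.36 (SE 0.18) did not pass. It was -0.10 without CTNNB1 siRNA replicate 1 and -0.62 without CTNNB1 siRNA replicate 2. ACLY, which makes the cytosolic acetyl-CoA, was at 11.85 and 12.12 against 12.22 and 12.43, a log2 fold change of 0.34 (SE 0.13). Its groups did not overlap, but the change did not pass, and it was 0.21 without control siRNA replicate 1. A change of ACACA was therefore called while those of ACLY and FASN, on either side of it in the pathway, were not. Whether their responses differ from that of ACACA was not tested.

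Among desaturases, SCD rose. It encodes the stearoyl-CoA desaturase that places the first double bond in saturated chains. Its levels were 15.79 and 15.95 in the controls and 16.55 and 16.84 after CTNNB1 siRNA, a log2 fold change of 0.83 (SE 0.12). Both CTNNB1 siRNA arrays of SCD lay above 16 log2 units, a range that only 267 to 284 clusters per array reached, and how the deposited scale was formed at that height is unknown here. FADS2, the delta-6 desaturase gene of polyunsaturated fatty acid synthesis, was at 6.28 and 6.41 against 6.23 and 6.28 and did not pass. FADS3, a desaturase acting on sphingoid bases, was at 7.12 and 7.23 against 7.43 and 7.48. Its log2 fold change of 0.28 (SE 0.08) lay just outside the threshold.

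Within the elongase family, 3 of 5 tested genes rose and 2 did not pass, where 14.2% of all tested genes rose. ELOVL6 encodes the elongase that extends palmitate to stearate, and it was at 8.83 and 8.76 log2 units with control siRNA and at 11.27 and 11.40 with CTNNB1 siRNA. It rose by 2.54 log2 units (SE 0.09, 95% interval 2.33 to 2.75), or 5.82-fold on the deposited scale, the rank 22 rise among 15679 tested genes. ELOVL1, which extends saturated and monounsaturated very long chains, went from 7.49 and 7.62 to 8.34 on both arrays and rose by 0.79 (SE 0.08). ELOVL7 rose by 0.59 (SE 0.14), from 7.93 and 8.06 to 8.40 and 8.77. ELOVL5, an elongase of polyunsaturated chains, was at 9.30 and 9.37 against 9.29 and 9.30. Its 95% interval of -0.23 to 0.15 leaves out a change of the size seen for ELOVL1, ELOVL6 or ELOVL7. ELOVL3 lay near the filter at 4.58 and 4.66 against 4.30 and 4.44 and did not pass. ELOVL2 (3.86 to 3.91) and ELOVL4 (3.64 to 3.88) lay below the filter on all arrays and were not tested.

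Long-chain acyl-CoA synthetases activate free fatty acids, and 1 of the 3 tested genes rose. ACSL1 was at 6.55 and 6.74 in the controls and at 6.97 and 7.32 after CTNNB1 siRNA, and it rose by 0.50 (SE 0.14). This value was 0.33 without CTNNB1 siRNA replicate 2, over 1.5 times smaller. ACSL5, a synthetase abundant in intestinal epithelium, was at 10.67 and 11.15 against 10.16 and 10.60. All CTNNB1 siRNA values of ACSL5 lay below the controls, and the log2 fold change of -0.53 (SE 0.21) did not pass. It was -0.29 without control siRNA replicate 2 and -0.31 without CTNNB1 siRNA replicate 1. ACSL4, which prefers arachidonate and other polyunsaturated chains, was at 10.67 and 10.60 against 10.45 and 10.56. The ACSL4 log2 fold change of -0.13 (SE 0.08) did not pass.

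The first acylation of glycerol-3-phosphate was the only step with a gene that rose and a gene that fell. GPAT3, an enzyme of the endoplasmic reticulum, was at 7.22 and 7.35 log2 units in the controls and at 10.45 and 10.52 after CTNNB1 siRNA. It rose by 3.20 log2 units (SE 0.09, 95% interval 2.99 to 3.41), or 9.19-fold on the deposited scale, the rank 7 rise among all tested genes. GPAM, whose product acylates glycerol-3-phosphate at the outer mitochondrial membrane, was at 8.14 and 8.09 against 7.11 and 7.17. Its log2 level dropped by 0.98 (95% interval -1.17 to -0.78, SE 0.08), the rank 466 fall. GPAT4, the other enzyme of the endoplasmic reticulum, was at 8.05 and 8.01 against 7.88 and 8.07, with an interval of -0.29 to 0.18. So 1 gene of the step rose, 1 fell and 1 did not pass, with intervals that do not overlap each other. Because levels of different probe sets are not comparable, these values do not say which gene supplied most transcript in either group.

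**Figure D2:**
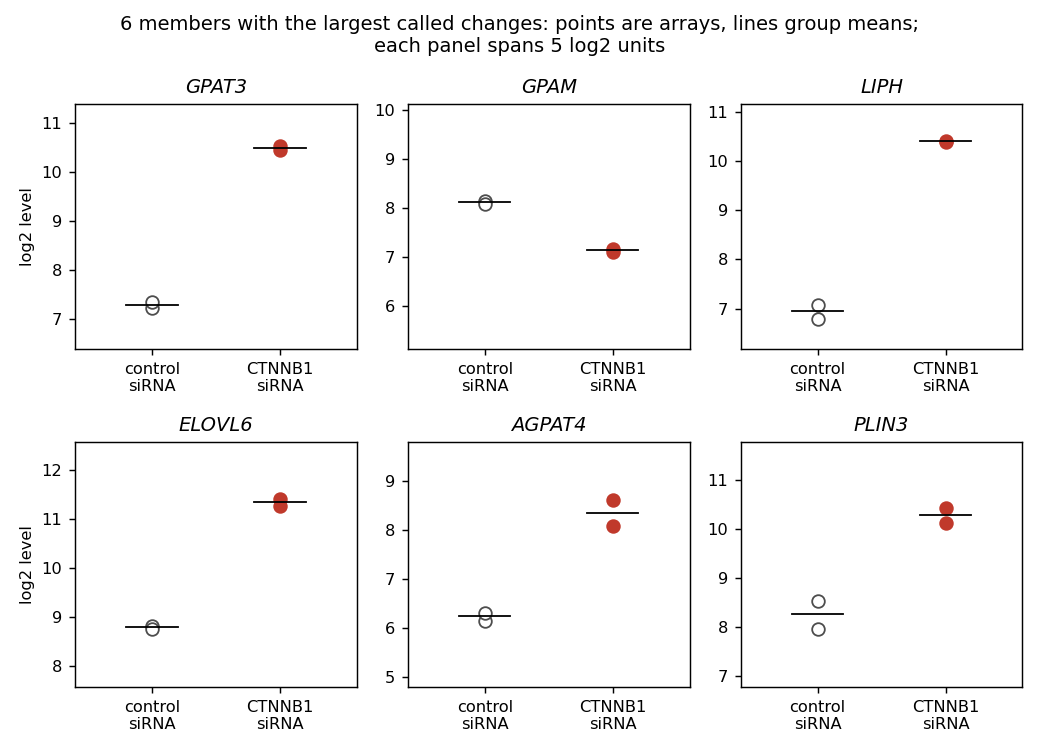
Log2 level (vertical axis) of GPAT3, GPAM, LIPH, ELOVL6, AGPAT4 and PLIN3 on each array, with control siRNA on the left and CTNNB1 siRNA on the right of each panel. Points are arrays and lines are means of 2 arrays, and every panel spans the same number of log2 units. In all 6 panels the arrays of the groups are apart by more than the gap between replicates.

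Of the 4 tested AGPAT genes, which encode the enzymes of the second acylation, 3 rose and 1 did not pass. AGPAT4 went from 6.15 and 6.32 log2 units to 8.08 and 8.62, a rise of 2.12 (SE 0.18) or 4.33-fold on the deposited scale. The 2 CTNNB1 siRNA arrays of AGPAT4 were themselves further apart than the controls, and the log2 fold change lay between 1.85 and 2.39 with any 1 array left out. AGPAT5 went from 12.42 and 12.51 to 13.16 and 13.37, a rise of 0.80 (SE 0.10). AGPAT1 went from 7.47 and 7.80 to 8.02 and 8.21, a rise of 0.48 (SE 0.14), which was 0.32 without control siRNA replicate 1. The array carries 7 clusters for AGPAT1. The other 6, at 0.43 each, are by their names copies of the same locus on alternate haplotypes and are no separate measurements. With the mean of all 7 the call of AGPAT1 was lost (0.44, adjusted p 0.066 in limma). AGPAT2, the isoform mutated in a congenital lipodystrophy, was at 6.65 and 6.59 against 6.55 and 6.57, with an interval of -0.25 to 0.13.

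Lipins remove the phosphate from phosphatidate to give diacylglycerol. LPIN1 was at 6.41 and 6.49 in the controls and at 7.19 and 7.23 after CTNNB1 siRNA and rose by 0.76 (SE 0.08). LPIN3 rose by a smaller 0.29 (SE 0.08), from 5.61 and 5.50 to 5.87 and 5.82. LPIN2 was at 5.96 and 6.15 against 6.08 and 6.38, and its groups overlapped. Neither gene of the last step passed. DGAT1 was at 7.35 and 7.51 against 7.40 on both arrays, and DGAT2 at 5.28 and 5.34 against 5.14 and 5.45. Both DGAT genes, which encode the enzymes that complete triglyceride, had intervals around 0, of -0.25 to 0.19 and -0.31 to 0.28. A rise of 1 log2 unit or more, as for GPAT3 and AGPAT4, lies outside both.

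Among genes for lipases, LIPH had the largest change of all members. It encodes a membrane-bound phospholipase A1 that makes lysophosphatidic acid from phosphatidic acid, so it is a neighbour of triglyceride metabolism more than a triglyceride lipase. LIPH was at 6.79 and 7.08 log2 units in the controls and at 10.42 and 10.40 after CTNNB1 siRNA. It rose by 3.48 (SE 0.11, 95% interval 3.19 to 3.76), or 11.1-fold on the deposited scale, the rank 6 rise among all tested genes. MGLL, the monoglyceride lipase gene, was at 4.24 and 4.48 against 5.15 and 5.06 and rose by 0.75 (SE 0.11). One of its control arrays lay below the filter level of 4.29, so how far MGLL rose is less certain than its direction.

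ABHD5 encodes the co-activator of adipose triglyceride lipase, and it was at 7.51 and 7.56 in the controls and at 8.37 and 8.40 after CTNNB1 siRNA. It rose by 0.85 (SE 0.08). The lipase that it activates, encoded by PNPLA2, was at 7.17 and 7.11 against 7.12 and 7.26, with an interval of -0.17 to 0.27. PNPLA3, a paralog of PNPLA2 on lipid droplets, was at 5.62 on both control arrays against 5.78 and 5.96 and did not pass. LIPE, the hormone-sensitive lipase gene, was at 5.16 and 5.14 against 5.03 and 4.90 and did not pass either.

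Of the droplet coat genes, PLIN3 rose and PLIN2 did not pass. PLIN3, whose product moves from the cytosol onto forming droplets, was at 7.97 and 8.54 log2 units in the controls and at 10.12 and 10.43 after CTNNB1 siRNA. It rose by 2.02 (SE 0.21, 95% interval 1.51 to 2.53), or 4.06-fold on the deposited scale, and its control arrays were the furthest apart of any member. PLIN2, a coat protein that is stable only on droplets and whose gene is widely used as a marker of lipid loading, was at 7.03 and 7.01 against 7.05 and 6.98. The PLIN2 interval was -0.20 to 0.19.

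**Figure D3:**
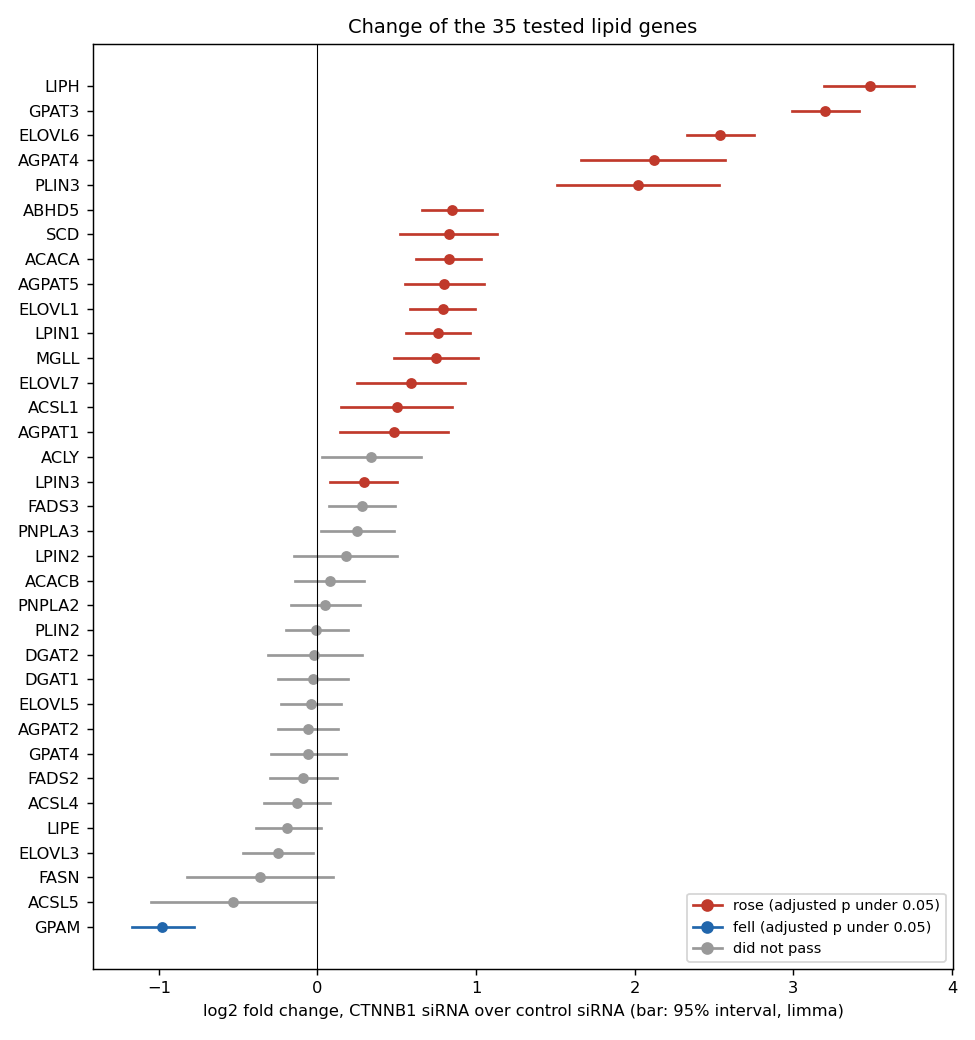
Change between CTNNB1 siRNA and control siRNA, in log2 units, for the 35 tested members, sorted by size, with limma's 95% interval as a bar. Red marks the 16 that rose, blue the 1 that fell and grey the 18 that did not pass. The 5 largest rises, from PLIN3 at 2.02 to LIPH at 3.48, stand apart from the next, ABHD5 at 0.85.

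The sizes fell into a gap. No member had a rise between 0.85 (ABHD5) and 2.02 (PLIN3) log2 units. Members nearest the threshold were ACSL1, AGPAT1 and LPIN3 just inside, with adjusted p-values in limma of 0.044, 0.046 and 0.047, and FADS3, ELOVL3, PNPLA3 and ACLY just outside, with 0.052, 0.088, 0.097 and 0.099. The calls of ACSL1, AGPAT1 and LPIN3 were lost without a level filter, and that of FADS3 was gained with a stricter one. All calls rest on limma's model and its pooled spread. An exact permutation test of 2 against 2 arrays cannot go below p = 0.33, so it could call no gene. With any 1 array left out no gene of the whole table passed in limma, and 14 to 17 of the 35 members then had an unadjusted p under 0.05, against 30.2% to 31.4% of all tested genes. The log2 fold changes of the 5 largest rises stayed between 1.74 (PLIN3) and 3.62 (LIPH), and that of GPAM between -1.01 and -0.95.

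Genes around this pathway were read from 6 further lists. Their counts and medians stand against 14.2% of all tested genes that rose, 16.1% that fell and a median of -0.02 log2 units. Regulators of lipid synthesis genes had 8 of 25 tested members that rose and 2 that fell, with a median of 0.10 log2 units. MBTPS1, the protease that makes the first cut in SREBP, went from 10.06 and 10.28 to 10.86 and 11.19 and rose by 0.86 (SE 0.14). PPARG, the nuclear receptor that drives fat cell differentiation, went from 6.62 on both arrays to 7.44 and 7.48 and rose by 0.84 (SE 0.08). PRKAB2, a subunit of the kinase AMPK, rose by 0.43 (SE 0.08). The other AMPK subunit genes on the list were mixed. PRKAA2 (0.34) and PRKAG2 (0.30) rose, PRKAA1 (-0.31) fell, and PRKAB1 (-0.16) and PRKAG1 (-0.31) did not pass. Besides PRKAA1, the gene of this list that fell was PPARD (-0.38). The transcription factor genes SREBF1, SREBF2 and MLXIPL were singled out after their values were seen. SREBF1, whose product drives fatty acid synthesis genes, was at 7.81 and 7.70 against 7.77 and 7.93, and its log2 fold change of 0.10 (SE 0.09) did not pass. SREBF2, whose product mainly drives cholesterol synthesis genes, was at 7.90 and 8.01 against 8.06 and 8.32. The SREBF2 groups did not overlap, and the log2 fold change of 0.24 (SE 0.11) did not pass. MLXIPL encodes ChREBP, a carbohydrate-responsive activator of fatty acid synthesis genes, and was at 6.47 and 6.26 against 6.80 and 6.67. MLXIPL rose by 0.37 (SE 0.10, adjusted p 0.046 in limma), a call that was lost without a level filter (adjusted p 0.061) and with another quantile normalization (0.056).

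Genes that supply acetyl-CoA and NADPH had 2 of 13 that rose and 2 that fell, with a median of 0.18. ME1, a malic enzyme of the cytosol and a source of NADPH for fatty acid synthesis, was at 12.51 and 12.71 against 15.69 and 15.56 and rose by 3.02 (SE 0.10). DLAT, a subunit of pyruvate dehydrogenase, rose by 0.64 (SE 0.09), and PDHA1, another subunit of that complex, fell by 0.56 on the log2 scale (SE 0.11). The fourth called gene, PGD of the pentose phosphate pathway, fell by 0.39 (SE 0.09).

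Fatty acid oxidation, the opposite pathway, had 6 of 24 genes that rose and 2 that fell, with a median of 0.20. SLC25A20, the carnitine carrier that brings acyl chains into mitochondria, rose by 1.11 (SE 0.09), from 5.59 and 5.74 to 6.75 and 6.80. ETFDH, which passes electrons from acyl-CoA dehydrogenases to ubiquinone, rose by 0.94 (SE 0.11). ACAA2, the mitochondrial thiolase gene, fell by 0.88 on the log2 scale (SE 0.21), from 7.92 and 8.20 to 6.88 and 7.48. The ACAA2 value was -0.58 without CTNNB1 siRNA replicate 1, over 1.5 times smaller.

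Fatty acid uptake and binding had 3 of 18 genes that rose and 1 that fell, with a median of 0.09. The thioesterase gene ACOT13 rose by 0.88 (SE 0.10), and the acyl-CoA binding genes ACBD5 and ACBD3 rose by 0.60 (SE 0.08) and 0.49 (SE 0.09). Phospholipid synthesis and remodelling, which draws on the same phosphatidate and diacylglycerol, had 7 of 27 that rose and 5 that fell, with a median of 0.04. PCYT1A, the rate-limiting enzyme gene of phosphatidylcholine synthesis, rose by 1.01 (SE 0.08). LPCAT3, which adds polyunsaturated chains to lysophospholipids, went from 11.49 and 11.53 to 12.46 and 12.55 and rose, with an interval of 0.80 to 1.19. SELENOI, the ethanolamine phosphotransferase gene, rose by 0.77 (SE 0.08).

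The list of other droplet and lipase genes had 3 of 24 that rose and none that fell, with a median of 0.03. SPAST, a microtubule-severing protein with a droplet-targeted form, rose by 1.19 (SE 0.12), and LIPA, the lysosomal acid lipase gene, by 0.92 (SE 0.10). DDHD2, a triglyceride hydrolase gene of the nervous system, rose by 0.30 (SE 0.09), a call that was lost without a level filter (adjusted p 0.063 in limma). LIPI and PLA1A, the closest relatives of LIPH on that list, lay below the filter at 3.87 to 4.14 and 3.30 to 3.46 and were not tested. They were named after their values were seen.

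**Figure D4:**
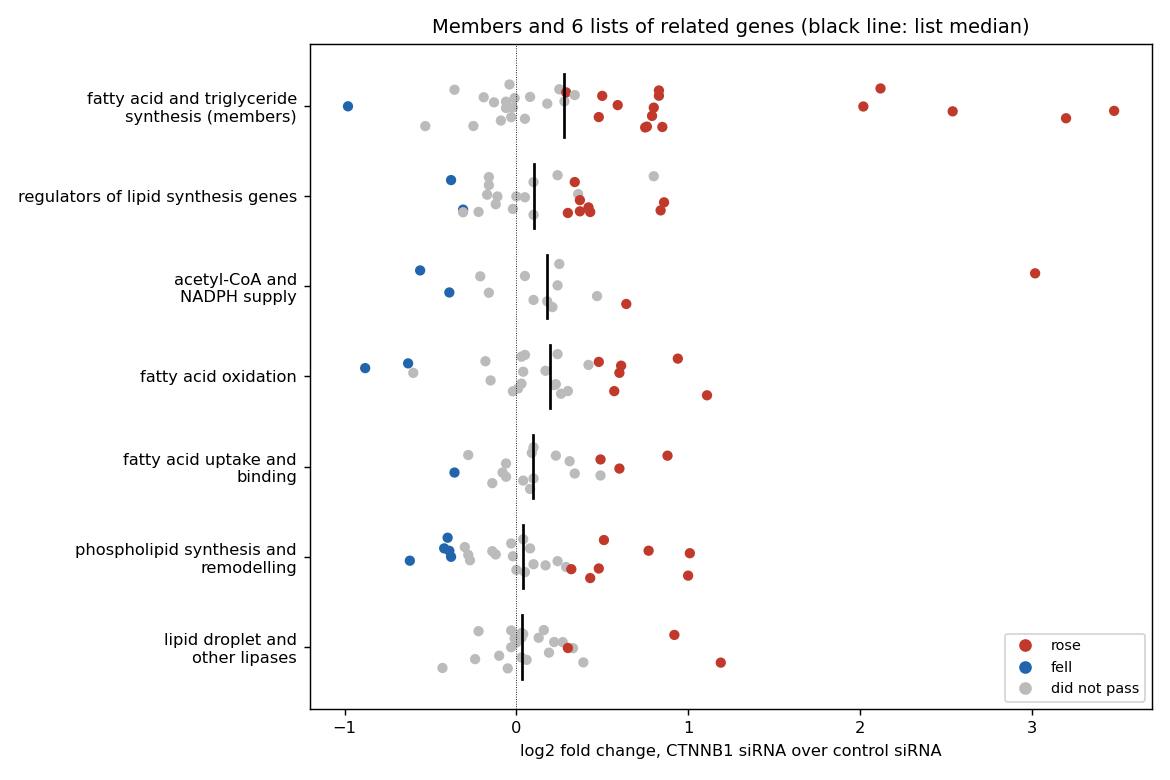
Change between CTNNB1 siRNA and control siRNA, in log2 units, for the tested genes of the member list and of 6 related lists, 1 point per gene, with the list median as a black line. Red points rose, blue points fell and grey points did not pass. The points beyond 2 log2 units are the 5 members LIPH, GPAT3, ELOVL6, AGPAT4 and PLIN3, and ME1 of the supply list.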

How the data were processed

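Total RNA was labelled with biotin and hybridised to whole-transcript arrays. The authors deposited log2 levels, 1 per transcript cluster and array, made with Affymetrix Expression Console and RMA, per the submitters' processing notes. Versions, the RMA variant and the build were not given in the sources used here. Any fold is therefore on the deposited scale. The table held 67528 clusters on 4 arrays, with array medians of 4.58 to 4.66, and detection calls were not used. The platform's annotation gave 1 symbol to 23781 clusters and several to 1543. Symbols were updated through the RefSeq table of GRCh38.p14, and the cluster with the highest mean over 4 arrays stood for each of 22411 genes.

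Genes above the 30th percentile of the mean (4.29) were tested in R 4.3.3 with limma 3.58.1 (lmFit, eBayes, 2 groups, no block, 5.66 degrees of freedom after moderation), with Benjamini-Hochberg adjustment over 15679 genes and a threshold of 0.05. SE and 95% intervals are moderated. Tests were 2-sided. The number of arrays limits the precision. The script was tested on simulated data, where unchanged genes made up a larger share of its calls than the threshold sets. That was a single run with far fewer changed genes than were called here, so its share does not give that of the real calls.

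Members and lists were chosen with earlier results of these data known. All members are named, and of each related list up to 3 called genes with the largest change. Others were named after their values were seen. Alternatives were other level filters, normalizations, eBayes settings and cluster rules, a replicate block and each array left out. Promoter windows were RefSeq's. Protein sequences were not used here. Plots used Python 3.11.15 and matplotlib 3.10.9.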

Additional observations from a re-analysis of the deposited data

How the results depend on the processing

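With no array left out, no called member changed direction under the 8 other settings, and between 13 and 17 members rose. Members lost were ACSL1, AGPAT1 and LPIN3 without a level filter, ACSL1 and AGPAT1 after median centring of each array, and AGPAT1 with the mean of all its clusters. FADS3 was gained with a filter at the 50th percentile and with another quantile normalization. That normalization also turned the sign of 3 members that did not pass, ELOVL5 (0.02), DGAT1 (0.01) and PLIN2 (0.01). The labels do not say that replicate numbers mark a shared culture, and deviations of same-numbered arrays correlated at 0.27 over the tested genes, with only 2 pairs. With the replicate number as a block, 16 members rose and 2 fell, LPIN3 was lost and ACLY (adjusted p 0.046) and ACSL5 (0.027) were gained in limma, while 1929 genes of the whole table rose and 1969 fell, against 2225 and 2531.

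With each 1 array left out in turn, 0 members, 0 related genes and 0 genes of the whole table passed in either direction in limma, which then had 1 residual degree of freedom among arrays and took the lone array to vary like the other group. Between 4732 and 4930 genes of the whole table had an unadjusted p under 0.05. CTNNB1 lay between -3.63 and -3.48, with adjusted p-values of 0.055 to 0.076. Members that did not pass and changed sign ranged from -0.15 to 0.04 (GPAT4), -0.11 to 0.05 (DGAT1), -0.17 to 0.14 (DGAT2), -0.02 to 0.12 (PNPLA2) and -0.04 to 0.03 (PLIN2). The cause of these shifts was not tested.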
